A study of Homo sapiens with 4 samples.

Results

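The genes described here are the 10 that encode the subunits of the hypoxia-inducible factors (HIFs) and the enzymes that make these factors sensitive to oxygen, among 58735 genes in the deposited tables. They were chosen by name and matched by symbol in the table of expression values and by gene identifier in the table of reads, and all 10 were found. RNA had been sequenced from wild-type MHCC-97H cells, a human hepatocellular carcinoma (HCC) line of high metastatic potential, 24 h after 1 of 4 treatments. The control received PBS, and the others received 2 µg of migrasomes (Migs), the vesicles that migrating cells leave on their retraction fibers. Normo-Migs came from MHCC-97H cells grown in normoxia, hypo-Migs from the same line grown in hypoxia, and CD147KO-Migs from CD147-knockout MHCC-97H cells grown in hypoxia. Hypoxia was thus a property of the donor cultures, and the labels give no oxygen level for the recipient cells. RNA carried by the Migs and RNA of the recipient cells, which are of the same line, cannot be told apart in these libraries.

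Each treatment had 1 library, so no difference below has a replicate check. A gene was called when the exact binomial test on the reads of 2 libraries gave an adjusted p of at most 0.05 (Benjamini-Hochberg over the 19895 genes that reached 10 reads in some library) and the log2 fold change was at least 1 in size. This test compares those 2 libraries, not the treatments, and every interval given is a 95% interval that covers counting error only. Levels are given in FPKM, which is corrected for gene length, and differences as log2 fold changes of reads after TMM scaling with a prior count of 2.

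HIFs are heterodimers of an oxygen-regulated α subunit and a stable β subunit. In oxygenated cells the prolyl hydroxylases EGLN1, EGLN2 and EGLN3 (PHD2, PHD1 and PHD3) modify the α subunit, and VHL, the substrate receptor of a ubiquitin ligase, then directs it to the proteasome. HIF1AN (FIH) hydroxylates an asparagine of the α subunit and so limits its contact with coactivators. Since most of this control acts on the protein, an RNA level does not give the amount of HIF protein, which was not measured in these files. EGLN1 and EGLN3 are themselves known as HIF target genes, and they act as a feedback on the pathway.

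HIF dimers bind DNA at a short core, ACGTG or GCGTG. The 250 bases before the RefSeq start (GRCh38.p14) were matched for 8 of the 10 genes and searched for both cores on both strands, to show where the genes of the pathway carry the letters that the pathway itself reads. VHL and ARNT2 were not matched. Since HIF1A and EGLN2 each have 2 such starts and HIF3A has 3, there were 12 windows, of which 5 held a core, 1 in each of the genes printed below, and 7 held none. Among 35116 promoter windows of the same length, 18.5% held ACGTG, 32.2% held GCGTG and 43.2% held either. The cores below are in capitals in 30-base windows written 5′ to 3′ on the strand of the gene, with EGLN1 on chr1:231422288-231422317 (minus strand), EGLN2 on chr19:40799130-40799159, HIF1A on chr14:61695297-61695326, EPAS1 on chr2:46297278-46297307, and the upstream-most HIF3A match on chr19:46296837-46296866.
EGLN1: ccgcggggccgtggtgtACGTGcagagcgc
EGLN2: gcggggcgcggtCACGTGcccaccgggcga
HIF1A: tggctgagagcgGCGTGggctggggtgggg
EPAS1: gggcctgccggcGCGTGcccgcccacacac
HIF3A: ccgcggcgagggGCGTGgttggggggtgtg
In EGLN1 the core lay 13 to 9 bases before the start, inside a GENCODE exon of the gene. The EGLN2 core is a palindrome, CACGTG, which was counted once on each strand. The first HIF3A window held 3 copies of GCGTG. No match was present in the windows of ARNT, EGLN3 and HIF1AN or in the further windows of HIF1A, EGLN2 and HIF3A, which says only that these letters were not in these windows. A match is a description of the sequence and not a binding site shown by these data.

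Depth ranged from 33882496 to 40285223 reads assigned to genes, so a count of 0 allows up to 3 reads, or 0.0745 to 0.0885 CPM (reads scaled to a fixed total per library). The library labelled PBS stood apart from the others. A set of 251 genes had at most 3 reads in it but 100 or more in every Mig library, whereas 0 genes were set apart in this way by any other library. Of 14 hepatocyte and hepatoma markers, 5 to 9 were above 3 reads. The liver markers ALB, AFP, APOB and TTR were at 0 in all 4 libraries, while KRT8 and KRT18, keratins of hepatocytes and other epithelia, were abundant, with KRT8 at 444 to 647 FPKM. The summed level of 8 fibroblast and stellate cell markers was 28.5 CPM with PBS and 210 to 224 CPM in the Mig libraries. Most of this difference lay in COL1A1, PDGFRB and THY1, which were at 20.1, 2.07 and 0.325 CPM with PBS and at 99.1 to 103, 50.5 to 61.8 and 48.6 to 53.0 CPM with Migs. COL3A1, ACTA2 and RGS5 were at 0.797, 2.10 and 2.48 CPM with PBS and at 0.405 to 0.670, 1.97 to 2.36 and 1.48 to 2.48 CPM with Migs. More than 3 reads were found for 7 of the 8 with PBS and for all 8 in each Mig library. Endothelial markers, of which KDR had 0 reads in 3 libraries, summed to 3.60 to 6.11 CPM, and leukocyte markers to 0.767 to 2.74 CPM. Within the endothelial list PECAM1 was at 0.472 CPM with PBS and 3.41 to 3.74 CPM with Migs. CDH5 went the other way, from 2.48 CPM to 0.868 to 1.79 CPM. The part of these differences in the results against PBS was not tested, and in such bulk libraries fewer cells of a type and less RNA per cell cannot be told apart.

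HIF1A, the most widely expressed HIF-α subunit (chr14:61695513-61748259, plus strand, hg38), had the highest FPKM of the 10 genes in every library. Its level was 91.9 FPKM with PBS (16373 reads) and 81.2, 92.1 and 89.7 FPKM with normo-Migs, hypo-Migs and CD147KO-Migs (14383, 19213 and 16333 reads). The normo-Migs library was thus the lowest, and the other 3 lay close together. HIF1A was higher with hypo-Migs than with normo-Migs by 0.18 on the log2 scale (interval 0.15 to 0.21; adjusted p = 1.26e-27, exact binomial test), which is 1.13-fold. It was lower with normo-Migs than with CD147KO-Migs by a log2 fold change of -0.14 (interval -0.18 to -0.11; adjusted p = 2.88e-16, exact binomial test). Between hypo-Migs and CD147KO-Migs the difference was 0.04 (interval 0.01 to 0.07; adjusted p = 0.0549, exact binomial test). These shifts were far below the threshold for a call, and 44.0% of the genes tested differed by more than HIF1A between hypo-Migs and normo-Migs. Against PBS, the log2 fold changes of HIF1A were -0.17, 0.01 and -0.02 for normo-Migs, hypo-Migs and CD147KO-Migs, and the first alone passed the adjusted p (7.89e-24, exact binomial test). With DESeq2 size factors the hypo-Migs value turned to -0.00296, and with totals alone to -0.0189, so that the highest library was hypo-Migs after TMM scaling and PBS by total reads. The antisense gene HIF1A-AS1, which overlaps 2.27% of the exon bases of HIF1A, had 36 reads with PBS and 2 to 10 reads in the Mig libraries. The strand setting of the counting is not stated, so reads of this pair in the shared bases cannot be told apart.

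EPAS1, which encodes HIF-2α, the α subunit known for its role in the hepatic control of erythropoietin and iron genes, followed another course (chr2:46293667-46386703, plus strand). It measured 24.0 FPKM with PBS and 44.7, 43.6 and 46.0 FPKM with normo-Migs, hypo-Migs and CD147KO-Migs. The 3 Mig libraries were within 1.06-fold of each other, and all lay above PBS. The log2 fold changes against PBS were 0.90 (interval 0.86 to 0.95), 0.87 (interval 0.82 to 0.91) and 0.95 (interval 0.90 to 0.99). All 3 passed the adjusted p of the exact binomial test and none reached the fold required for a call. With hypo-Migs EPAS1 was lower than with CD147KO-Migs by a log2 fold change of -0.08 (adjusted p = 0.000230, exact binomial test).

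HIF3A, the third α subunit, whose short splice forms are known as inhibitors of HIF activity, was at the edge of detection (chr19:46297046-46343433, plus strand). It had 0 reads with PBS and 8, 14 and 16 reads in the normo-Migs, hypo-Migs and CD147KO-Migs libraries, or at most 0.0541 FPKM. With 3 reads put in for the PBS library and the Mig reads taken as counted, the ratios were 2.70-fold, 4.01-fold and 5.26-fold. The lower ends of the intervals of the log2 fold changes against PBS were 0.79, 1.51 and 1.93. The adjusted p of the exact binomial test was 0.00611, 0.000350 and 6.20e-05. HIF3A was tested only because its reads with hypo-Migs and CD147KO-Migs reached the limit for testing. The comparisons of those libraries with PBS thus reuse the reads that admitted the gene. Their p-values therefore cannot decide whether HIF3A differed from PBS. Between the Mig libraries the intervals were wide, from -0.78 to 2.03 for hypo-Migs against normo-Migs.

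The proportion of the α subunits therefore differed between PBS and the Mig libraries. HIF1A made up 79.3% of the summed α-subunit FPKM with PBS and 64.5% to 67.9% with Migs, and EPAS1 made up 20.7% and 32.1% to 35.5%. In reads, 0.371 EPAS1 reads were counted per HIF1A read with PBS, against 0.779, 0.670 and 0.728 for the normo-Migs, hypo-Migs and CD147KO-Migs treatments. This ratio within a library does not depend on the scaling of libraries. It was 1.81-fold (interval 1.74 to 1.88) to 2.10-fold (interval 2.02 to 2.18) higher with Migs than with PBS. Among the Mig libraries it was lowest with hypo-Migs, at 0.860 times the normo-Migs value (interval 0.832 to 0.890) and 0.922 times the CD147KO-Migs value (interval 0.892 to 0.952).

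**Figure D1:**
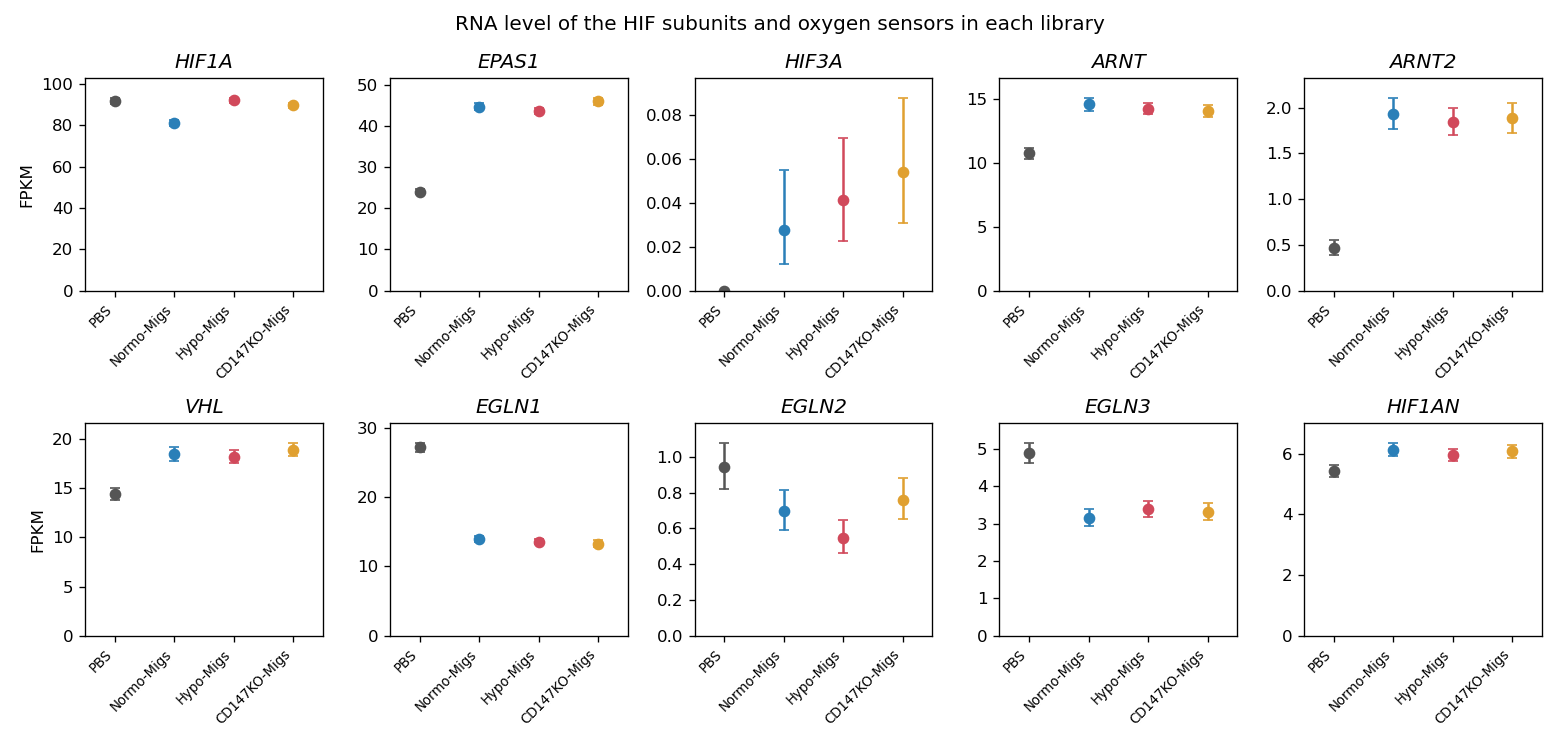
RNA level (FPKM, linear axes from 0) of each of the 10 genes in the 4 libraries, 1 point per library, with exact 95% Poisson intervals for counting error and none drawn for HIF3A with PBS, where 0 reads were counted. EPAS1, ARNT2, ARNT and VHL sit higher and EGLN1 and EGLN3 lower in the 3 Mig libraries than with PBS, and HIF1A is lowest with normo-Migs at 81.2 FPKM.

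ARNT, the general HIF-β subunit (chr1:150809705-150876768, minus strand), measured 10.7 FPKM with PBS and 14.6, 14.2 and 14.0 FPKM with normo-Migs, hypo-Migs and CD147KO-Migs. All 3 Mig libraries were above PBS, by log2 fold changes of 0.45, 0.42 and 0.39, with adjusted p between 8.55e-31 and 6.32e-24 in the exact binomial test. Its intervals overlapped 0 in every comparison of 2 Mig libraries.

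ARNT2, a paralog of ARNT best known from neurons and kidney (chr15:80404350-80597937, plus strand), had the largest relative difference against PBS of the genes with reads in all 4 libraries. It had 124 reads with PBS and 515, 578 and 516 reads with normo-Migs, hypo-Migs and CD147KO-Migs, or 0.463 FPKM against 1.94, 1.84 and 1.89 FPKM. The PBS library was low and the Mig libraries nearly equal. The log2 fold changes against PBS were 2.06 (interval 1.79 to 2.37), 1.99 (interval 1.72 to 2.29) and 2.02 (interval 1.75 to 2.33), and ARNT2 was called each time (adjusted p from 8.03e-58 to 1.32e-55, exact binomial test). Differences of this size were not rare, since 13.2% of the genes tested differed by more between normo-Migs and PBS. Between 2 Mig libraries the largest difference of ARNT2 was -0.07 (interval -0.24 to 0.10; adjusted p = 0.625, exact binomial test), for hypo-Migs against normo-Migs. ARNT2 accounted for 4.13% of the summed β-subunit FPKM with PBS and 11.5% to 11.9% with Migs. Per ARNT read there were 3.00-fold (interval 2.45 to 3.70) to 3.12-fold (interval 2.54 to 3.85) more ARNT2 reads with Migs than with PBS.

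EGLN1 encodes PHD2, the main HIF prolyl hydroxylase in oxygenated cells, and its window is the first of those shown above (chr1:231363751-231425044, minus strand). It measured 27.2 FPKM with PBS, from 6840 reads, and 13.9, 13.6 and 13.3 FPKM with normo-Migs, hypo-Migs and CD147KO-Migs, from 3475, 3997 and 3418 reads. PBS was high and the Mig libraries lay within 1.05-fold of each other. The log2 fold changes against PBS were -0.96 (interval -1.02 to -0.90), -0.99 (interval -1.05 to -0.94) and -1.02 (interval -1.08 to -0.96). The threshold of 1 ran through these values, so EGLN1 was called with CD147KO-Migs alone, although the Mig libraries did not differ from each other for this gene beyond their intervals. When totals were used in place of TMM, all 3 differences passed the threshold.

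EGLN3 encodes PHD3, a hydroxylase known for strong induction by hypoxia (chr14:33924231-34462774, minus strand). Its level was 4.88 FPKM with PBS and 3.16, 3.39 and 3.31 FPKM with normo-Migs, hypo-Migs and CD147KO-Migs. It also fell against PBS in all 3 Mig libraries, by log2 fold changes of -0.62, -0.52 and -0.55 (adjusted p from 5.25e-21 to 8.14e-17, exact binomial test). The fall was smaller than that of EGLN1, since the EGLN3 reads per EGLN1 read were 1.27-fold (interval 1.15 to 1.40) to 1.39-fold (interval 1.27 to 1.53) higher with Migs. Among Mig libraries the intervals of EGLN3 overlapped 0 in all 3 comparisons.

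EGLN2, which encodes PHD1 (chr19:40798996-40808433, plus strand), was low and is uncertain. It had 215 reads with PBS and 158, 146 and 177 with normo-Migs, hypo-Migs and CD147KO-Migs. In GENCODE 93.4% of its coding bases are shared with the read-through gene RAB4B-EGLN2 or with AC008537.1, each of which had 0 reads in every library. Reads over the shared bases were thus not counted for each gene that they overlap, although the counting rule is not stated. The EGLN2 level, and the differences below, are therefore likely to leave out most of its coding sequence. As counted, EGLN2 was lowest with hypo-Migs, with a log2 fold change of -0.77 against PBS (adjusted p = 1.03e-06, exact binomial test), where normo-Migs gave -0.42 and CD147KO-Migs -0.30. It was also lower with hypo-Migs than with CD147KO-Migs, at -0.47 (interval -0.80 to -0.15; adjusted p = 0.0197, exact binomial test).

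VHL (chr3:10141008-10152220, plus strand) measured 14.4 FPKM with PBS and 18.4, 18.2 and 18.9 FPKM with normo-Migs, hypo-Migs and CD147KO-Migs. It was higher than with PBS in each Mig library, by log2 fold changes of 0.37, 0.35 and 0.41. HIF1AN, the asparaginyl hydroxylase (chr10:100529072-100559998, plus strand), measured 5.43 FPKM with PBS and 6.14, 5.96 and 6.08 FPKM in the same order. It was the steadiest of the hydroxylases, with log2 fold changes of 0.19, 0.14 and 0.17 against PBS. Both genes passed the adjusted p against PBS in all 3 comparisons without reaching the fold for a call, and neither passed it between Mig libraries. HIF1AN shares 325 exon bases with NDUFB8 on the other strand.

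By FPKM the order with PBS was HIF1A, EGLN1, EPAS1, VHL, ARNT, HIF1AN, EGLN3, EGLN2, ARNT2 and HIF3A. In each Mig library it was HIF1A, EPAS1, VHL, ARNT, EGLN1, HIF1AN, EGLN3, ARNT2, EGLN2 and HIF3A. EGLN1 thus stood 3 places lower and ARNT2 above EGLN2. The neighbours ARNT and EGLN1 had overlapping counting intervals in all 3 Mig libraries, for example 14.2 (13.8 to 14.7) and 13.6 (13.2 to 14.0) FPKM with hypo-Migs, and no other neighbours overlapped in any library. Summed over the families, the α subunits measured 116 FPKM with PBS and 126 to 136 FPKM with Migs, and the prolyl hydroxylases 33.1 FPKM and 17.4 to 17.8 FPKM. The ratio of these sums was 3.51 with PBS and 7.08, 7.74 and 7.81 for normo-Migs, hypo-Migs and CD147KO-Migs. The place of EGLN2 in the order, the hydroxylase sums and these ratios rest on its uncertain level, which counting intervals do not cover.

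To see how the treatments differed over all 10 genes, calls were counted against the share among all genes tested. Against PBS, 2 of 10 were called with normo-Migs (HIF3A and ARNT2), where 27.2% of all genes were called, 2 with hypo-Migs (HIF3A and ARNT2), where 28.3% were called, and 3 with CD147KO-Migs (HIF3A, ARNT2 and EGLN1), where 27.5% were called. By direction, 16.5%, 17.5% and 16.6% of all genes were called as higher with normo-Migs, hypo-Migs and CD147KO-Migs, and 10.7%, 10.9% and 10.9% as lower. The share of the 10 genes was therefore near the background in each comparison. HIF3A counts in each of these shares, although it was tested only because of its reads with hypo-Migs and CD147KO-Migs. The adjusted p alone was passed by 10, 9 and 8 of the 10 genes, against 69.7%, 71.3% and 69.9% of all genes. The number with CD147KO-Migs was higher with DESeq2 size factors or totals, and the share of all genes was not matched for depth. All 3 comparisons share the PBS library, so its own deviation enters all of them.

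Between the Mig libraries, 0 of the 10 genes were called in any comparison. The background was 4.9% of all genes for hypo-Migs against normo-Migs, 5.04% for hypo-Migs against CD147KO-Migs and 4.91% for normo-Migs against CD147KO-Migs. The adjusted p alone was passed by 1 gene (HIF1A), 2 genes (EPAS1 and EGLN2) and 1 gene (HIF1A), against 24.7%, 25.2% and 24.8% of all genes. When edgeR's exact test assumed a coefficient of variation of 0.1, 0 of the 10 genes passed in each of these comparisons, against 1.34%, 1.18% and 1.47% of all genes. Against PBS, 5, 6 and 5 genes then still passed with normo-Migs, hypo-Migs and CD147KO-Migs, against 40.9%, 42.9% and 41.7% of all genes.

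**Figure D2:**
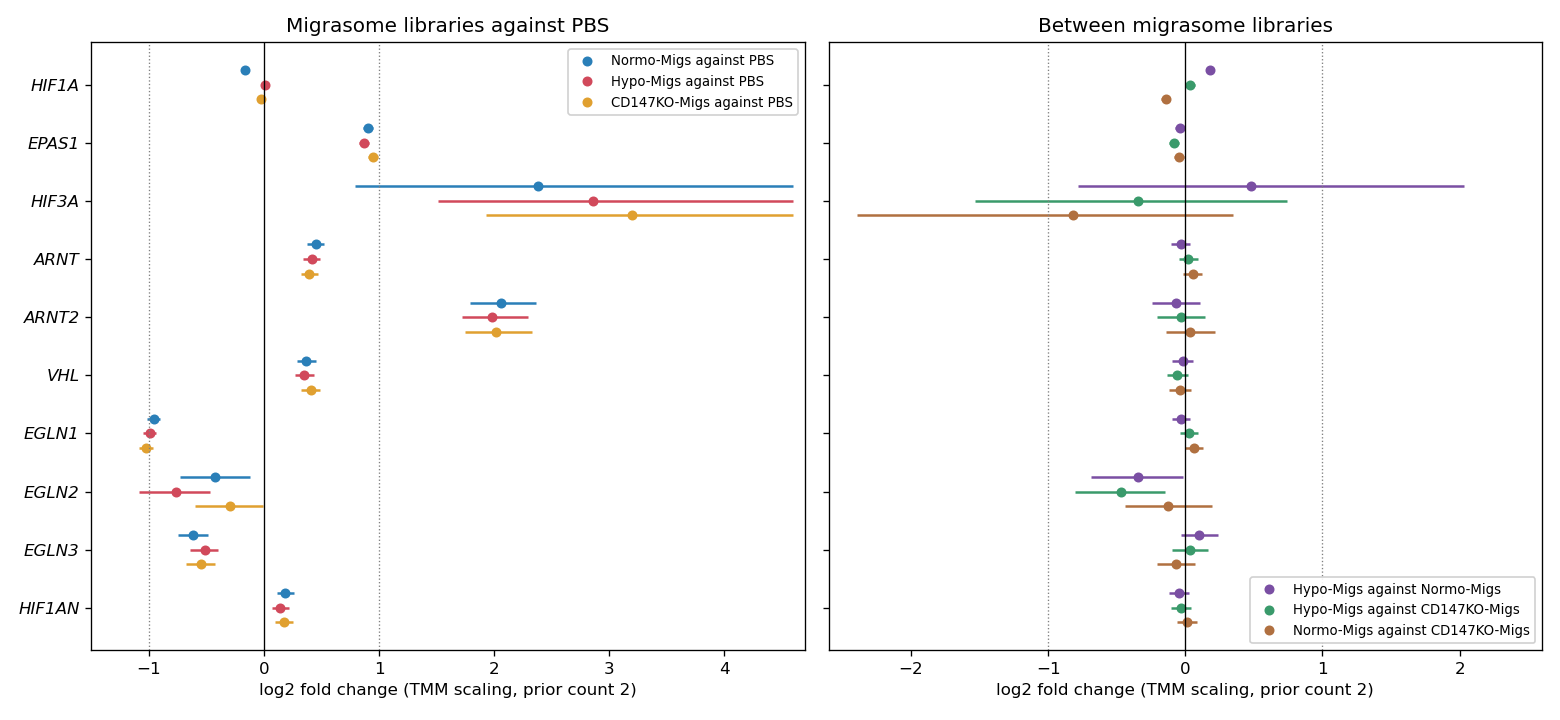
Log2 fold change of reads (TMM scaling, prior count 2) of the 10 genes for each Mig library against PBS and for the 3 pairs of Mig libraries, with exact 95% intervals for counting error and dotted lines at -1 and 1. The HIF3A intervals against PBS have no upper end and are drawn to 4.6, EGLN1 lies on the line at -1, and all points between Mig libraries lie inside the dotted lines.

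The rest of the pathway was read from 4 lists. The degradation machinery around VHL, with its cullin, elongins and NEDD8 pathway and with other regulators of HIF-α stability, had 16 genes, all tested. Against PBS, 0, 1 and 0 genes of this list were called for normo-Migs, hypo-Migs and CD147KO-Migs, or 0%, 6.25% and 0%, below the 27.2%, 28.3% and 27.5% of all genes tested. The gene called was SIAH2, a ubiquitin ligase that targets prolyl hydroxylases and was named after its values were seen, with 2016 reads with PBS and 1161 with hypo-Migs (log2 fold change -1.01). SIAH2 lay at -0.85 with normo-Migs and -0.88 with CD147KO-Migs. The list medians were -0.05, -0.11 and -0.01, against 0.03, 0.04 and 0.03 over all genes tested.

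Of 18 coactivators and bHLH-PAS relatives of the HIFs, 16 were tested, and 1, 0 and 1 (6.25%, 0% and 6.25%) were called with normo-Migs, hypo-Migs and CD147KO-Migs against PBS, also below the 27.2%, 28.3% and 27.5% of all genes. The gene called with normo-Migs was the aryl hydrocarbon receptor gene AHR, a partner of ARNT, at -1.01, and the gene called with CD147KO-Migs was NPAS1, at 1.09. Both were named after their values were seen, and the threshold divided values of the same direction. AHR lay at -0.74 with hypo-Migs and -0.95 with CD147KO-Migs, and NPAS1 at 0.90 with normo-Migs and 0.64 with hypo-Migs. With hypo-Migs AHR was at 0.27 against normo-Migs (interval 0.13 to 0.41) and at 0.21 against CD147KO-Migs (interval 0.08 to 0.35). NPAS1 was at -0.45 with hypo-Migs against CD147KO-Migs (interval -0.72 to -0.20). Against normo-Migs it was at -0.26, with an interval that overlapped 0 (-0.53 to 0.01). The coactivator genes EP300 and CREBBP, also named after their values were seen, lay at -0.16 and -0.60 with hypo-Migs against PBS. The list as a whole did not fall with them. The list medians against PBS were 0.24, 0.27 and 0.15 for normo-Migs, hypo-Migs and CD147KO-Migs, against 0.03, 0.04 and 0.03 over all genes. With hypo-Migs all 16 tested genes passed the adjusted p against PBS, 9 of them higher and 7 lower. Of 18 other oxygen-dependent dioxygenases, all tested, 1 (5.56%) was called in each comparison with PBS, again below those shares of all genes. It was P4HA3, a subunit of a collagen prolyl hydroxylase, with 29 reads with PBS and 390, 386 and 315 reads with normo-Migs, hypo-Migs and CD147KO-Migs.

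Of 34 HIF target genes listed, which include none of the 10 genes above, 33 were tested against PBS. With normo-Migs 17 were called, 2 higher and 15 lower, with hypo-Migs 16, 2 higher and 14 lower, and with CD147KO-Migs 18, 2 higher and 16 lower. These are 51.5%, 48.5% and 54.5% of the list, against 27.2%, 28.3% and 27.5% of all genes, of which 10.7%, 10.9% and 10.9% were called as lower with Migs. The medians were -0.86, -0.82 and -0.97, against 0.03, 0.04 and 0.03 over all genes. NDRG1, a stress-response gene with strong hypoxic induction, had 41209 reads with PBS and 4892, 5958 and 4287 reads with normo-Migs, hypo-Migs and CD147KO-Migs. ADM, the gene of the vasodilator peptide adrenomedullin, had 2970 reads with PBS and 547, 783 and 605 with Migs, and RORA, a nuclear receptor gene, had 275 and 39, 58 and 59. These 3 genes had the largest falls by the median of the 3 comparisons. Among the genes called as higher each time was SLC2A3, the gene of the glucose transporter GLUT3, which went from 27 reads with PBS to 3639, 4614 and 3421 reads. EGLN1 and EGLN3, known as targets too, thus fell in the same libraries as most of this list. EPAS1, ARNT, ARNT2 and VHL were higher there.

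Between Mig libraries 0 target genes were called. The adjusted p alone was passed by 23 of 33 for hypo-Migs against CD147KO-Migs and by 18 of 33 for normo-Migs against CD147KO-Migs, and in each case all of these were lower with CD147KO-Migs. Among all genes tested, 12.5% and 13.3% passed in that direction, and among those averaging 500 reads or more 16.5% and 20.1%. Of the 29 target genes above that mean, 22 and 18 passed. The medians of the 33 were 0.19 and 0.12, against 0.000423 and 0.00147 over all genes. CA9, the hypoxia-induced carbonic anhydrase, had the largest difference of the list between hypo-Migs and CD147KO-Migs and was named after its values were seen. It had 3824 reads with PBS and 1119, 1297 and 768 in the normo-Migs, hypo-Migs and CD147KO-Migs libraries, and the last pair differed by 0.56 on the log2 scale. For hypo-Migs against normo-Migs, 14 of the 33 passed, 10 higher and 4 lower, with a median of 0.04. Both comparisons with CD147KO-Migs share that library, and with a coefficient of variation of 0.1 assumed in edgeR's exact test 0 target genes passed in any of the 3 comparisons. Of the 10 HIF and sensor genes, HIF3A alone, with at most 16 reads, had a log2 difference between 2 Mig libraries of more than 0.56 in size.

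For each of the 9 genes averaging 100 reads or more, the protein-coding gene with the most similar course was sought among 11440 genes with that mean. Likeness was the Euclidean distance between log2 CPM values centred on their mean over the 4 libraries. The nearest genes were SKIV2L for HIF1A (distance 0.0140), ORAI2 for EPAS1 (0.0133), SASS6 for ARNT (0.00772), AC004556.1 for ARNT2 (0.0217) and HNRNPF for VHL (0.00954). For the hydroxylases they were TMEM231 for EGLN1 (0.0249), CRY2 for EGLN2 (0.0288), ACADSB for EGLN3 (0.00705) and TMEM127 for HIF1AN (0.00809). None of the 10 genes was the nearest to another. With 4 libraries and so many genes, close matches are easily found, and they describe these libraries alone.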

How the data were processed

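The authors deposited raw counts of reads per gene and a table of FPKM, scaled for length and depth. The submitters' processing notes name CASAVA 1.8, fastp, HISAT2 2.0.5, featureCounts 1.5.0-p3 and hg38. The strand setting and the treatment of reads over 2 genes are not given in the sources used here. The labels name a SMARTER kit, and the supplementary methods poly-T beads. One passage of the methods gives hypoxia as the source of normo-Migs, whereas the labels give normoxia, which was followed. All libraries carry the same batch label. All 58735 genes matched GENCODE release 29 with equal coordinates, and FPKM equalled reads over length and a constant 0.994 to 1.02 times the total.

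Total reads on genes and counting limits are given with the results. Genes that reached 10 reads in some library were kept, and libraries were scaled by TMM (factors 0.986 to 1.02; edgeR 4.0.16 in R 4.3.3). Reads of 2 libraries were compared by a two-sided exact binomial test in scipy 1.17.1 (Python 3.11.15, numpy 2.4.6, pandas 2.3.3, matplotlib 3.10.9), with Clopper-Pearson intervals. Ratios of 2 genes were compared by conditional odds ratios. Quasi-likelihood tests have no residual degrees of freedom here. Other scalings, filters, prior counts, FPKM, assumed spreads and DESeq2 1.42.0 over the 4 libraries were tried, and the procedure was tested on simulated data. The genes and lists were chosen with earlier results of these data known. Named were the 10 genes, their overlapping and nearest genes, list genes called between Mig libraries, and per list up to 3 largest rises and falls called in all 3 comparisons with PBS with a mean of at least 50 reads. One gene that this rule names is not reported here.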

Additional observations from a re-analysis of the deposited data

How the results depend on the processing

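Values below are for hypo-Migs against normo-Migs, hypo-Migs against CD147KO-Migs, normo-Migs against CD147KO-Migs, and normo-Migs, hypo-Migs and CD147KO-Migs against PBS, in that order. The genes called numbered 975, 1003, 977, 5414, 5637 and 5463. They numbered 235, 215, 241, 2679, 2756 and 2744 where every library had to hold 10 reads, 56, 80, 66, 1619, 1674 and 1658 by fold on log2(FPKM + 1), and 0, 1, 2, 1535, 1633 and 1575 with an assumed coefficient of variation of 0.4. DESeq2 over the 4 libraries, taken as replicates of 1 group for the spread, called 0 in all 6. Between Mig libraries a coefficient of variation of 0.1 gave 259, 228 and 281, the dispersion over the 3 Mig libraries 0, 0 and 0, and fold alone 1858, 1814 and 1928. That dispersion takes the 3 Mig libraries as replicates of 1 group, so its counts between them cannot decide whether they differ. It gave 3600 and 3748 for normo-Migs and hypo-Migs against PBS.

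Of the 10 HIF and sensor genes, the number called between Mig libraries was 0 under all alternatives, although the dispersion over the Mig libraries and DESeq2 take the compared libraries as replicates. Against PBS it fell from 2, 2 and 3 to 0, 0 and 1 with a coefficient of variation of 0.4, to 1, 0 and 0 on log2(FPKM + 1) and to 0, 0 and 0 with DESeq2. It fell to 1, 1 and 2 on log2(FPKM + 0.1) and with 10 reads required in every library, which removes HIF3A. With normo-Migs it fell to 1 under the dispersion over the Mig libraries. HIF1A with hypo-Migs against PBS turned to -0.00296 with DESeq2 size factors, -0.0189 with totals and -0.00296 with DESeq2. HIF1AN with normo-Migs against CD147KO-Migs turned to -0.00714 with totals. Under the alternatives 684 log2 fold changes of the 10 genes kept their direction and their side of the threshold, 23 lost a call and 3 gained one. Ratios of 2 genes cannot change between reads and FPKM, since FPKM here is reads over length and a constant per library. No paired analysis was possible because each treatment had 1 library, which also leaves no replicate to leave out. Depth limits HIF3A, with at most 16 reads, and EGLN2, with at most 215.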
